A study of Mus musculus with 9 samples.

Results

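Transcripts of skeletal muscle were measured in dissected submandibular salivary glands of Smgb-Tag mice. The set comprised 41 genes of the fast and slow sarcomere, calcium handling, muscle energy metabolism and muscle gene control, found by the gene symbol that the platform annotation gives each probe. Of these, 38 had a probe, 72 probes in all, out of 45281 probes and 19057 genes with a probe on the array. Myh2, Smpx and Cacna1s had no probe under their symbol. On the brightest probe, 26 of the 38 genes were above background on at least 3 of the 9 arrays and entered the group comparisons, out of 12717 genes tested. The 12 others were Myh7, Myl2, Myl3, Tnni1, Neb, Myot, Casq1, Sln, Cacng1, Pygm, Myod1 and Trim63.

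Skeletal muscle contracts by the sliding of thick filaments, made of myosin, along thin filaments of actin, with troponin on the thin filament as the calcium switch. Calcium leaves the sarcoplasmic reticulum through the ryanodine receptor and is pumped back by a calcium ATPase, and fast and slow fibres use different genes for many of these parts. Salivary glands hold acini, ducts, myoepithelial cells, vessels and connective tissue but no skeletal muscle of their own, while muscles of the neck and jaw adjoin the submandibular gland.

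All 9 glands carried the Smgb-Tag transgene, a viral large T antigen named for Smgb, a secretory protein gene of this gland. The 9 Illumina arrays form 3 groups of 3 by the stage in the sample titles, namely normal tissue without tumour, dysplasia and adenocarcinoma. The labels give no age, sex or strain, no account of how the gland was freed from neighbouring tissue, and no word on whether replicates came from different animals. The p-values therefore measure the spread between these arrays, which may be technical, and the number of arrays limits the precision. In bulk tissue, fewer cells of a type and less RNA per cell cannot be told apart.

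Values are log2 of the authors' quantile-normalized intensities, which run up to 15.63, with background at 6.34. Aqp5, the water channel of acinar cells in this gland, lay between 11.09 and 14.63 on all 9 arrays, lowest on adenocarcinoma 3. Acinar genes were not steady as a set. The median of 7 acinar markers, Aqp5 included, ran from 10.30 on dysplasia 3 to 15.39 on normal 1. Among the normal glands, normal 1 and normal 2 correlated at r = 0.992 across tested genes, whereas normal 3 correlated with them at 0.868 and 0.877, while its correlation with adenocarcinoma 2 was 0.972. Genes do not act as independent replicates here, so r only describes pairs of arrays. Because normal 3 is closer to lesions than to normal 1 and normal 2, each comparison with normal glands is also given without it.

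The muscle genes were highest in 1 adenocarcinoma, next in 2 normal glands, and near background in most of the rest. The median log2 intensity of the 26 tested genes was 9.57 on adenocarcinoma 3, against 6.81 on adenocarcinoma 1 and 6.35 on adenocarcinoma 2. Normal 1, 2 and 3 gave medians of 7.51, 7.37 and 6.63, and dysplasia 1, 2 and 3 gave 6.33, 6.32 and 6.57. The median of all tested genes stayed between 8.36 and 8.42 on every array. The normal and dysplasia medians did not overlap, and the adenocarcinoma medians spanned both.

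The brightest array was the same for almost the whole set. Of the 26 tested genes, 24 were highest on adenocarcinoma 3, as were 31 of the 38 with a probe, compared with 14.2% of all tested genes and 13.3% of all genes with a probe. For 18 of the 26 the 3 brightest arrays were adenocarcinoma 3, normal 1 and normal 2, which held for 7.3% of all tested genes. The exceptions were Myh1, Myh8, Mybpc2, Tnnc1, Tcap, Des, Mb and Myog. On adenocarcinoma 3, 32 of the 38 genes were above background. On normal 1 and normal 2 this was so for 25 genes each, on adenocarcinoma 1 for 22, on dysplasia 3 for 20, on normal 3 for 18, on adenocarcinoma 2 for 14, on dysplasia 1 for 13 and on dysplasia 2 for 12. Over all genes with a probe, the share above background hardly moved, from 60.7% to 62.7%. The tested muscle genes spanned a median of 3.45 log2 units from their lowest to their highest array, from 0.46 to 7.51, against a median of 1.16 for all tested genes. Of 15 muscle genes with more than 1 probe, 9 had more than 1 above background on at least 3 arrays, and in 6 of these each such probe was highest on adenocarcinoma 3. The others were Myog, Ryr1 and Ttn. A span over 4 log2 units was seen for 9 of the 26 muscle genes and for 4.27% of all tested genes.

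**Figure D1:**
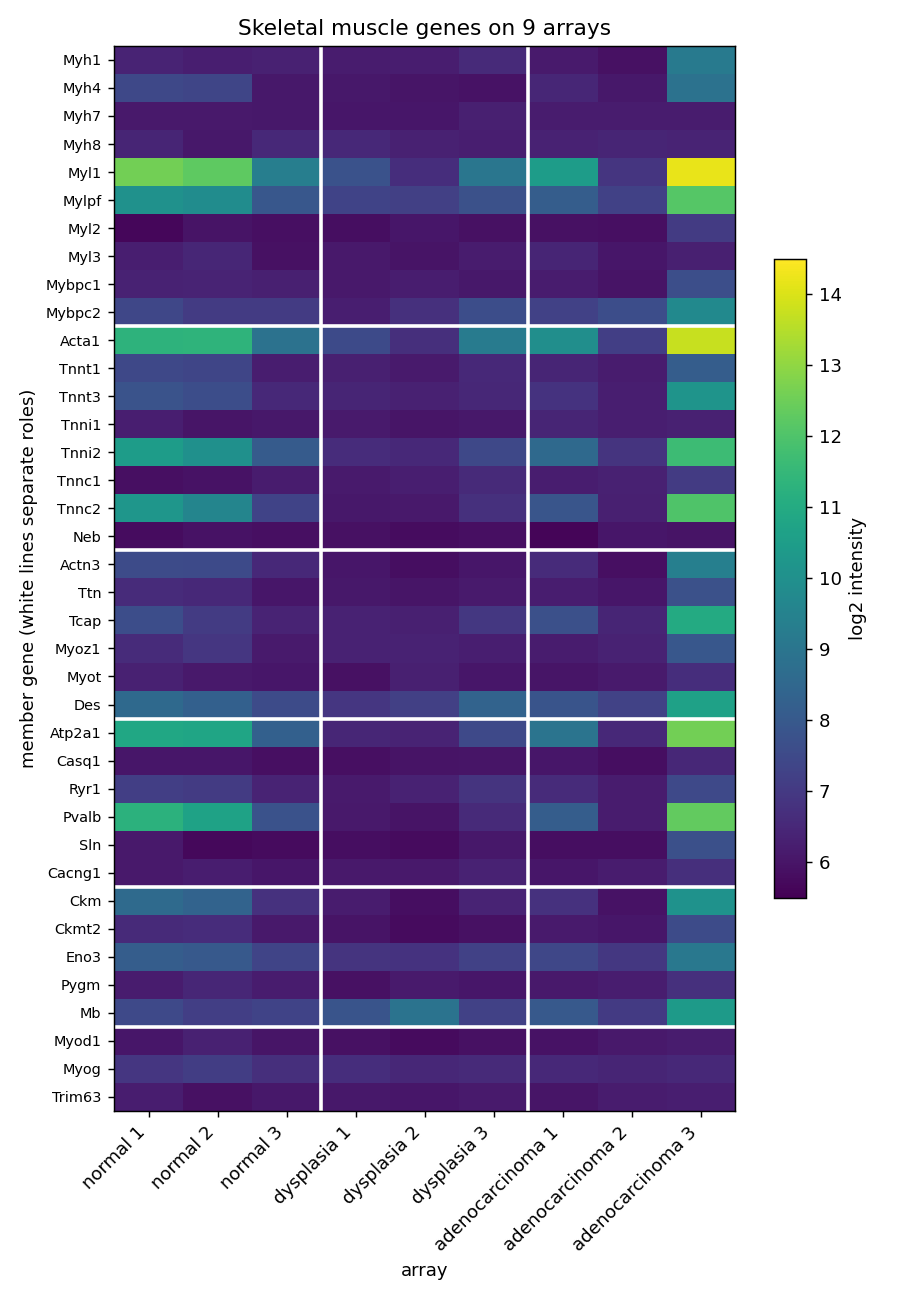
Log2 intensity of the 38 muscle genes with a probe (rows, grouped by role) on the 9 arrays (columns), with colour showing the level. The column of adenocarcinoma 3 is the brightest for 31 genes, followed by normal 1 and normal 2, and the dysplasia columns are mostly near the background of 6.34.

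In the thick filament, the myosin light chains spanned many log2 units between arrays. Myl1, the essential light chain of fast fibres, was at 12.59, 12.26 and 9.34 on normal 1, 2 and 3, at 7.76, 6.69 and 9.03 on dysplasia 1, 2 and 3, and at 10.48, 6.88 and 14.20 on adenocarcinoma 1, 2 and 3. Each dysplasia array lay below each normal array, and the adenocarcinomas spanned both groups. Mylpf, the regulatory light chain of fast fibres, was at 10.06, 9.87 and 7.94 in normal glands, 7.32, 7.20 and 7.74 in dysplasia and 8.16, 7.24 and 12.13 in adenocarcinoma. It kept the same order of groups on a smaller scale, with dysplasia below normal on every array. Mybpc2, the fast form of myosin binding protein C, was at 7.40, 7.05 and 7.05 in normal glands, 6.25, 6.75 and 7.64 in dysplasia and 7.24, 7.61 and 9.77 in adenocarcinoma. Here dysplasia 3 and adenocarcinoma 2 were above every normal array, so the groups overlapped.

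The heavy chains, the motor proteins themselves, lay close to background on most arrays. Myh4, the heavy chain of the fastest fibres, reached 7.44 and 7.37 on normal 1 and normal 2, 8.90 on adenocarcinoma 3 and 6.46 on adenocarcinoma 1, and was below background on the other 5 arrays. Myh1, another fast heavy chain, reached 9.20 on adenocarcinoma 3 and lay between 5.92 and 6.56 elsewhere. Myh8, the perinatal heavy chain, was at 6.42, 6.08 and 6.54 in normal glands, 6.53, 6.33 and 6.27 in dysplasia and 6.35, 6.43 and 6.41 in adenocarcinoma. On this probe, its brightest, the correlation with the median of the set over the 9 arrays was −0.10. A further Myh8 probe was above background on adenocarcinoma 3 alone, at 6.96, and another was at 6.33 there. Myh7, the slow heavy chain, was not well above background on any array. In the mouse genome Myh2, Myh1, Myh4 and Myh8 lie next to each other and are close copies, so which of them a probe reads is uncertain.

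The thin filament genes again set normal 1, normal 2 and adenocarcinoma 3 apart from the rest. Acta1, the actin of skeletal muscle, was at 11.31, 11.37 and 8.88 on normal 1, 2 and 3, at 7.52, 6.70 and 9.24 on dysplasia 1, 2 and 3, and at 9.94, 7.18 and 13.73 on adenocarcinoma 1, 2 and 3. Dysplasia 3 was above normal 3, so these groups overlapped, and adenocarcinoma 2 was below dysplasia 1 and 3. Tnni2, the inhibitory troponin subunit of fast fibres, was at 10.48, 10.01 and 8.10 in normal glands, 6.65, 6.55 and 7.46 in dysplasia and 8.58, 6.87 and 11.68 in adenocarcinoma. Tnnc2, the calcium-binding troponin subunit of fast fibres, was at 10.24, 9.59 and 7.30 in normal glands, 6.07, 6.10 and 6.74 in dysplasia and 7.88, 6.28 and 12.03 in adenocarcinoma. For both troponins every dysplasia array was below every normal array, and dysplasia 1 and 2 were at background for Tnnc2. Tnnc1, the subunit of slow and cardiac fibres, was at 5.88, 5.94 and 6.18 in normal glands, 6.16, 6.27 and 6.57 in dysplasia and 6.21, 6.34 and 7.08 in adenocarcinoma. It was never above background in normal glands, and its 3 adenocarcinoma values were all above the normal ones by a small margin. Tnnt3 and Tnnt1, the fast and slow subunits that bind tropomyosin, were highest on adenocarcinoma 3, at 10.16 and 8.17. Neb, the giant ruler protein of the thin filament, was not well above background on any array.

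**Figure D2:**
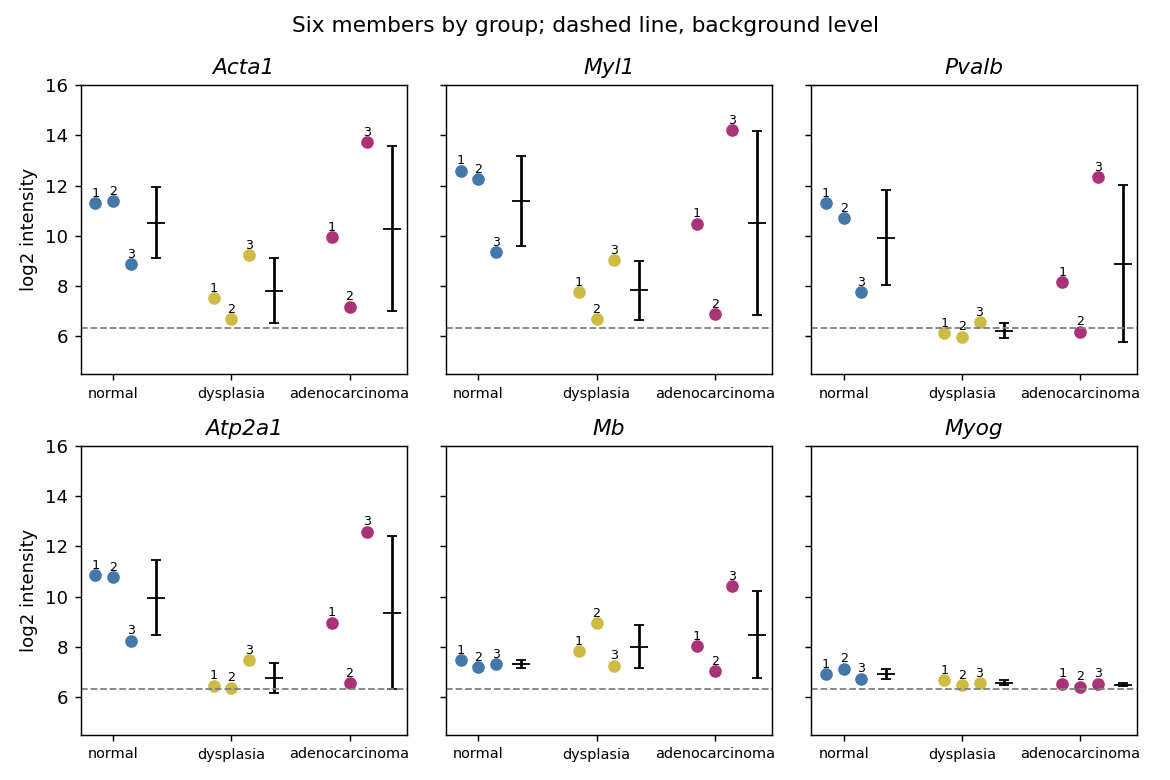
Log2 intensity of Acta1, Myl1, Pvalb, Atp2a1, Mb and Myog on each of the 9 arrays (points, numbered by replicate), with the group mean and SD (n = 3) beside them and a dashed line at the background of 6.34. Acta1, Myl1, Pvalb and Atp2a1 are highest on adenocarcinoma 3, normal 1 and normal 2, Mb on adenocarcinoma 3 and dysplasia 2, and Myog varies by under 1 log2 unit.

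Promoters are shown for the 4 tested genes with a single RefSeq start and the widest span over the arrays, which carry the pattern most clearly. The sequences are the 250 bases before the start, on the strand of the gene, from RefSeq on build GRCm38.p6. Capitals mark E-boxes (CANNTG), the motif of the MyoD family of muscle regulators, and in Acta1 also a CArG box, the motif of serum response factor.
Myl1, chr1:66945057-66945306, minus strand: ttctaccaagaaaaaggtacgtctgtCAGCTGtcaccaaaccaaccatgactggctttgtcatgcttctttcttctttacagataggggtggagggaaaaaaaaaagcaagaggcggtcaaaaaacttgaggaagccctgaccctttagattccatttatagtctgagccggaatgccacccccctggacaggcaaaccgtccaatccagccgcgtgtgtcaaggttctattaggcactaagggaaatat
Acta1, chr8:123894776-123895025, minus strand: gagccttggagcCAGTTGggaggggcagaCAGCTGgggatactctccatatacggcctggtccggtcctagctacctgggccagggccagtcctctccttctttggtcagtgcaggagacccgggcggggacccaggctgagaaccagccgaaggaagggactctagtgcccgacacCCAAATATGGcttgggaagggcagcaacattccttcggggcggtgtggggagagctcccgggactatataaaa
Atp2a1, chr7:126463074-126463323, minus strand: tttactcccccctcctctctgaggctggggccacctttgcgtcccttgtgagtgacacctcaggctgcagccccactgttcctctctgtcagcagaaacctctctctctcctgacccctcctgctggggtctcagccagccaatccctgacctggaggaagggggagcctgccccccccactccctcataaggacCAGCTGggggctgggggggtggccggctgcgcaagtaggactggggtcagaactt
Tnnc2, chr2:164779735-164779984, minus strand: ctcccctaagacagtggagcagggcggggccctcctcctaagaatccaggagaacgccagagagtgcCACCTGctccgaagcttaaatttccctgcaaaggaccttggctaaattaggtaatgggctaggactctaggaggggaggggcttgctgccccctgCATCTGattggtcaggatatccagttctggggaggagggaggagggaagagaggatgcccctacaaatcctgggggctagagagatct
The Myl1 and Atp2a1 windows held 1 E-box each and the Acta1 and Tnnc2 windows 2 each. RefSeq windows were matched for 31 of the 41 genes, 37 windows in all because some genes have several starts. An E-box was present in 32 of these 37 windows (86.5%) and in 66.2% of all 32851 windows of the same length. The form CAGCTG, which is itself an E-box, was in 18 (48.6%) against 13% of all windows. The MEF2 box was in 5 (13.5%) against 2.92%, and the CArG box in 3 (8.11%) against 1.47%. Each motif reads the same on both strands. A match of letters is a description and not a bound site.

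In the Z-disc, which anchors the thin filaments, adenocarcinoma 3 was again the highest array. Tcap, the telethonin that caps titin, was at 7.61, 7.08 and 6.38 in normal glands, 6.36, 6.29 and 6.96 in dysplasia and 7.69, 6.42 and 10.99 in adenocarcinoma. Normal and dysplastic glands overlapped, and adenocarcinoma 1 was as high as normal 1. Des, the desmin filament that smooth muscle also makes, was at 8.58, 8.26 and 7.56 in normal glands, 6.91, 7.21 and 8.38 in dysplasia and 7.84, 7.28 and 10.66 in adenocarcinoma. Dysplasia 3 lay within the normal values. Actn3, the alpha-actinin of fast fibres, was at 7.55, 7.51 and 6.53 in normal glands, 6.06, 5.82 and 6.06 in dysplasia and 6.59, 5.88 and 9.38 in adenocarcinoma. On this probe it was below background in all 3 dysplasias and above it in all 3 normal glands, whereas a further Actn3 probe was at 6.57 on dysplasia 3 and at 6.31 on normal 3. Ttn, the titin spring, and Myoz1, a fast-fibre partner of calcineurin, reached 7.72 and 7.93 on adenocarcinoma 3. Of the 12 probes for Ttn, 2 were above background on at least 3 arrays. The less bright of these was at 6.20 on adenocarcinoma 3, below background. Another Ttn probe was above background on adenocarcinoma 3 alone, at 6.82. Myot, a Z-disc scaffold, was above background on adenocarcinoma 3 alone, at 6.67.

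Among the calcium handling genes, Atp2a1 and Pvalb had the widest spans. Atp2a1, the SERCA1 pump that returns calcium to the sarcoplasmic reticulum, was at 10.85, 10.78 and 8.25 in normal glands, 6.46, 6.38 and 7.47 in dysplasia and 8.96, 6.55 and 12.58 in adenocarcinoma. Pvalb, the parvalbumin that buffers calcium in fast fibres, was at 11.29, 10.69 and 7.76 in normal glands, 6.13, 5.99 and 6.57 in dysplasia and 8.17, 6.19 and 12.33 in adenocarcinoma. For both genes each dysplasia array was below each normal array, and adenocarcinoma 2 was as low as dysplasia. Ryr1, the calcium release channel, was at 7.16, 7.06 and 6.38 in normal glands, 6.15, 6.37 and 6.86 in dysplasia and 6.60, 6.19 and 7.48 in adenocarcinoma. On this probe its 3 highest arrays were again adenocarcinoma 3, normal 1 and normal 2, its span was narrow, and normal and dysplastic glands overlapped. Sln, the sarcolipin that restrains the pump, was at 7.68 on adenocarcinoma 3 and below background on the other 8 arrays on its brightest probe. A further Sln probe was below background on every array, at 5.96 on adenocarcinoma 3. Casq1 and Cacng1, a calcium store protein and a channel subunit, reached 6.49 and 6.72 there.

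The enzymes of muscle energy supply followed the filament genes, with myoglobin apart. Ckm, the muscle creatine kinase, was at 8.60, 8.35 and 6.80 in normal glands, 6.20, 5.84 and 6.38 in dysplasia and 6.79, 5.93 and 10.10 in adenocarcinoma. Eno3, the muscle enolase, was at 8.16, 8.0 and 7.34 in normal glands, 6.85, 6.83 and 7.25 in dysplasia and 7.43, 6.96 and 9.10 in adenocarcinoma. Both were lower on each dysplasia array than on any normal array. Mb, the oxygen carrier myoglobin, was at 7.47, 7.18 and 7.31 in normal glands, 7.84, 8.93 and 7.25 in dysplasia and 8.03, 7.02 and 10.41 in adenocarcinoma. Its second highest array was dysplasia 2, an array on which most other muscle genes were at background. Ckmt2, the mitochondrial creatine kinase, was at 7.56 on adenocarcinoma 3 and below background in every dysplasia. Pygm, the muscle glycogen phosphorylase, reached 6.75 on adenocarcinoma 3.

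Among the regulators and Trim63, only Myog was tested, and on its brightest probe it did not share the pattern of the structural genes. Myog, the transcription factor myogenin of differentiating muscle, was at 6.92, 7.13 and 6.73 in normal glands, 6.69, 6.49 and 6.56 in dysplasia and 6.54, 6.42 and 6.54 in adenocarcinoma. It was weakly above background on all 9 arrays, highest in the 3 normal glands, and no higher on adenocarcinoma 3 than on adenocarcinoma 1. A further Myog probe, above background on 3 arrays, was highest on adenocarcinoma 3, at 6.77. Myod1, a founding factor of the muscle lineage, and Trim63, a ubiquitin ligase of muscle atrophy, were not well above background on any array.

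Fast-fibre genes were detected on more arrays than slow-fibre genes. Of 13 fast-fibre genes with a probe, 13 were above background on adenocarcinoma 3, 12 on normal 1, 11 on normal 2, 10 on adenocarcinoma 1, 9 on normal 3 and dysplasia 3, and 6 on dysplasia 1, dysplasia 2 and adenocarcinoma 2. Of 7 slow-fibre genes, 4 were above background on adenocarcinoma 3, 3 on normal 2 and adenocarcinoma 1, 2 on normal 1 and dysplasia 3, 1 on adenocarcinoma 2, and 0 on normal 3, dysplasia 1 and dysplasia 2. Myl2, the slow regulatory light chain, was at 7.05 on adenocarcinoma 3 and below background elsewhere. Mybpc1, the slow binding protein C, was at 7.67 on adenocarcinoma 3 and at most 6.39 elsewhere. Tnni1 and Myl3, slow troponin and light chain genes, reached 6.42 and 6.48 at most. Probes differ in brightness, so these are counts of detected genes and not a ratio of fibre types.

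On the brightest probe of each gene, the level relative to adenocarcinoma 3 differed between muscle genes, but probes of the same gene differed as well. Intensity over the background mode was expressed as a percent of that on adenocarcinoma 3 for the 24 genes more than 1 log2 unit above background there. On normal 1 the median was 22.7% over 23 genes above background, from 3.47% for Myh1 to 68.7% for Ryr1. On normal 2 it was 21.9% over 22 genes, from 3.56% for Tcap to 60.1% for Ryr1. The Ryr1 extreme belongs to its brightest probe, at log2 7.16 on normal 1 and 7.48 on adenocarcinoma 3. Its next brightest probes were at 6.67 and 7.69, and at 6.50 and 7.64, on the same arrays. Myl1 was at 12.59 and 14.20 on its brightest probe and at 9.17 and 9.73 on the next. The spread is therefore not one between genes alone. Both normal glands gave Pvalb a large share of its adenocarcinoma 3 level, 47.9% and 31.0%, and Tcap a small one, 6.62% and 3.56%. Mb was at 8.61% and 6.12% on normal 1 and 2 but at 32.5% on dysplasia 2. Acta1, by contrast, was at 18.4% and 19.1% on normal 1 and 2, close to the medians there. Between normal 1 and normal 2 themselves, the 26 tested genes differed by −0.32 (Myoz1) to 0.65 (Tnnc2) log2 units.

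**Figure D3:**
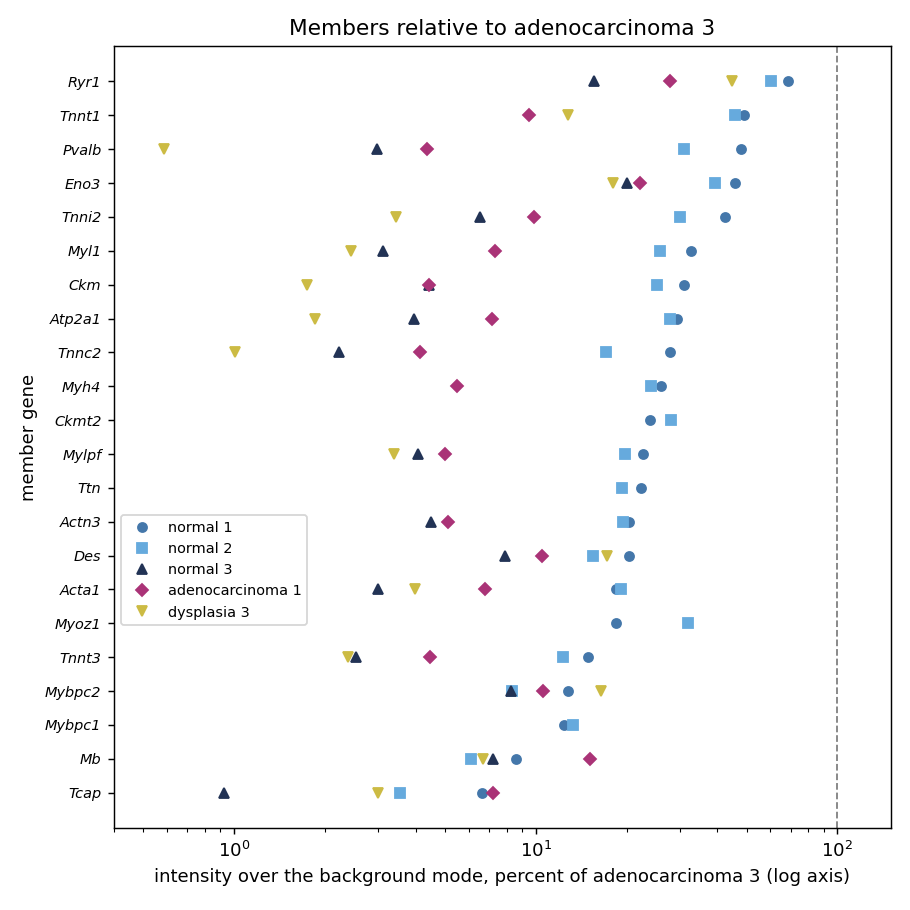
Intensity over the background mode as a percent of that on adenocarcinoma 3 (horizontal axis, log scale; dashed line, 100%) for the 22 muscle genes also above background on normal 1 and normal 2 (rows, ordered by normal 1). Each point is 1 array on which the brightest probe of the gene was above background, for the 3 normal glands, adenocarcinoma 1 and dysplasia 3. On these probes the genes run from 6.62% for Tcap to 68.7% for Ryr1 on normal 1.

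Dysplasia was compared with normal glands to see which genes accompany the first lesion. The largest differences were all lower in dysplasia, but none passed the test. The log2 fold change was −3.69 ± 1.5 (SE) for Pvalb with an adjusted p of 0.21 in limma, −3.57 ± 1.73 for Myl1 (adjusted p = 0.26) and −3.19 ± 1.40 for Atp2a1 (adjusted p = 0.23), with n = 3 arrays per group. It was −2.74 ± 1.38 for Tnnc2, −2.70 ± 1.55 for Acta1 and −2.64 ± 1.14 for Tnni2, with adjusted p between 0.22 and 0.33. Actn3 differed by −1.22 ± 0.80 on its brightest probe (adjusted p = 0.39 in limma) and by −0.89 with the mean over probes. Mb and Tnnc1 went the other way, at 0.69 ± 0.80 and 0.33 ± 0.25. Myog differed by only −0.35 ± 0.15 on its brightest probe (adjusted p = 0.23 in limma) and by −0.11 with the mean over probes.

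Of the 26 muscle genes, 0 passed in limma at an adjusted p under 0.05 in that comparison on all 9 arrays, as did 0% of all 12717 genes. At an unadjusted p under 0.05 there were 2 of 26, Pvalb and Tnni2, where 22.2% of all tested genes reached it. The median log2 fold change of the 26 was −0.66, with 23 below 0, beside 0.04 for all tested genes. In 13 of the 26 each dysplasia array was below each normal array, and in 15 of the 38 with a probe, against 10.5% and 9.21% of all genes. In 0 of the 26, and 0 of the 38, was each dysplasia array above each normal array, against 12.3% and 9.78% of all genes. In 20 of the 26, and 24 of the 38, each dysplasia array was below normal 1 and normal 2, against 27.4% and 23.8% of all genes. Without normal 3 the median was −1.0 and still 0 of 26 passed (lowest adjusted p = 0.063, Pvalb), although 23.7% of all tested genes then did. With array weights, which gave normal 3 a weight of 0.17 and dysplasia 2 one of 6.43, 18 of the 26 passed lower and 2 higher, when 28.4% of all tested genes passed lower and 32.8% higher, 61.2% together.

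Adenocarcinomas and normal glands were compared for the end point of the disease, and the muscle genes had no common direction. The log2 fold change was −1.01 ± 1.5 for Pvalb (adjusted p = 0.76 in limma), −0.88 ± 1.73 for Myl1 and −0.24 ± 1.55 for Acta1. It was 1.34 ± 1.01 for Tcap (adjusted p = 0.52), 1.17 ± 0.80 for Mb and 1.04 ± 0.64 for Mybpc2. None passed (0 of 26, 0% of all tested genes), with 1 of 26 at an unadjusted p under 0.05 against 15.9% of all tested genes. That gene was Myog, at −0.43 ± 0.15 on its brightest probe (adjusted p = 0.28 in limma). On that probe it was the only tested muscle gene with each adenocarcinoma below each normal array (9.76% of all tested genes). The further Myog probe did not share this, at 6.25, 6.23 and 6.25 in normal glands and 6.22, 6.32 and 6.77 in adenocarcinoma. Tnnc1 was the only tested one with each adenocarcinoma above (10.4% of all), its mean at least 1.15-fold higher (adjusted p = 0.33 in limma). That bound rests on adenocarcinoma 3, at 7.08, while Tnnc1 was at 6.21 and 6.34 on adenocarcinoma 1 and 2. Its fitted log2 difference was 0.54 on all 9 arrays and 0.27 without adenocarcinoma 3. Over the 38 genes with a probe the counts were 2 above and 1 below (8.54% and 8.92% of all genes). With normal 3 set aside, 1 of 26 and 1 of 38 had each adenocarcinoma below normal 1 and normal 2, against 27.1% and 23.9% of all genes. The median over the 26 was 0.07, with 14 above 0 and 12 below, beside 0.01 for all tested genes. It was −0.61 without adenocarcinoma 3, and −0.25 without normal 3, when 0 of 26 passed and 15.4% of all tested genes did. With other arrays left out it was 0.37 without adenocarcinoma 1, 0.68 without adenocarcinoma 2 (25 of 26 above 0), 0.27 without normal 1 and 0.21 without normal 2. With array weights Pvalb and, on its brightest probe, Myog passed lower in limma (adjusted p = 0.049 and 0.010). Of all tested genes 17.1% then passed lower and 35.3% in either direction.

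In adenocarcinoma against dysplasia, the mean was higher in adenocarcinoma for 25 of the 26 genes, and adenocarcinoma 3 carried most of the difference. The log2 fold change was 2.70 ± 1.73 for Myl1, 2.67 ± 1.5 for Pvalb, 2.59 ± 1.40 for Atp2a1 and 2.46 ± 1.55 for Acta1, each with an adjusted p of 0.89 in limma. Again 0 of 26 passed (0% of all tested genes), and 0 of 26 reached an unadjusted p under 0.05, where 4.22% of all tested genes did. With array weights 0 of 26 passed too, when 0.0315% of all tested genes did. The median was 1.12, beside −0.05 for all tested genes, and was 0.21 without adenocarcinoma 3. Ckmt2 was the only one of the 26 with each adenocarcinoma above each dysplasia (4.03% of all tested genes), and in 0 was each below (6.55%). On that Ckmt2 probe adenocarcinoma 1 and 2 were themselves below background, at 6.14 and 6.03. The groups overlapped on its further probe, with adenocarcinoma 2 at 5.69 and dysplasia 1 at 5.75. Over the 38 with a probe, Ckmt2, Tnni1 and Myod1 were so, 3 of 38 above against 4.3% of all genes, and 0 below against 6.43%. This comparison shares its arrays with the other comparisons, so the 3 sets of differences are not independent.

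**Figure D4:**
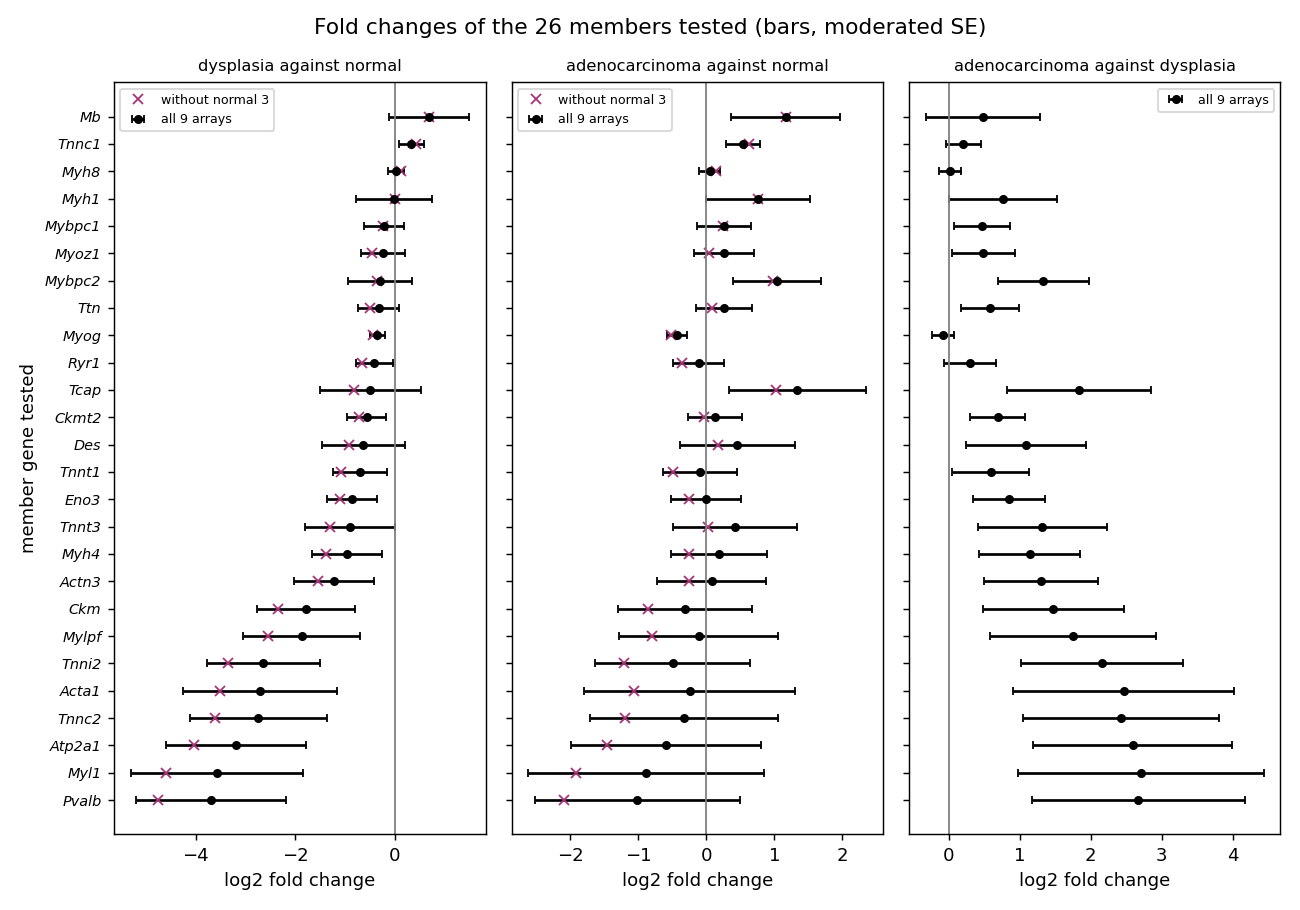
Log2 fold change (horizontal axis) of the 26 tested muscle genes (rows) in the 3 comparisons, as black points with the moderated SE as bars on all 9 arrays, and as crosses without normal 3. Most points of dysplasia against normal lie left of 0, those of adenocarcinoma against normal lie on both sides, and 0 of 26 passed an adjusted p of 0.05 in limma in any of them.

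Further genes of muscle outside the set shared the pattern in part. Of 73 listed, 67 had a probe and 43 were tested, and 18 of these 43 were highest on adenocarcinoma 3, beside the 14.2% of all tested genes. None passed in any comparison on all 9 arrays (0 of 43 in limma, 0% of all tested genes). At an unadjusted p under 0.05 in limma there were 7, 5 and 2 of 43. Of all tested genes 22.2%, 15.9% and 4.22% reached it, so these counts set the muscle genes little apart. The median log2 fold changes were −0.14 for dysplasia against normal, 0.15 for adenocarcinoma against normal and 0.41 for adenocarcinoma against dysplasia. Without normal 3, 7 were lower in dysplasia, where 11.3% of all tested genes were. Their log2 fold changes ran from −0.84 (Phkg1) to −5.85 (Cox8b), with adjusted p of 0.0057 to 0.025 in limma. These were Lmod3 and Tpm2 of the thin filament, Pfkm and Phkg1 of glycolysis and glycogen breakdown, and Cox7a1, Cox8b and Fabp3 of oxidative metabolism, several of which brown fat or other tissues also use. In adenocarcinoma against normal, without normal 3, Tpm3 passed higher (adjusted p = 0.047 in limma; 7.59% of all tested genes passed higher), and Lmod3 and Pfkm passed lower (adjusted p = 0.014 and 0.017; 7.86%). Normal 3 was left out with its values known, which leaves a pair of nearly equal normal arrays.

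The tropomyosins Tpm1 and Tpm3, which many cell types make, were at 11.98 to 13.13 and 11.01 to 12.47 over the arrays. Fbp2, a fructose bisphosphatase of muscle, was highest on dysplasia 2, at 14.05, and lowest on adenocarcinoma 3, at 8.06, opposite to the muscle set. Pfkm, the muscle phosphofructokinase, was at 12.41 and 12.53 on normal 1 and 2 and at most 11.16 on the other 7 arrays. Chrnb1, a subunit of the muscle acetylcholine receptor, was highest on dysplasia 3, at 11.82, and at 8.20 to 8.34 in normal glands. Chrne, its adult subunit, stayed between 6.33 and 7.01. Myl4, the embryonic light chain, was highest on adenocarcinoma 3 and at most 8.46 elsewhere, and Actc1, cardiac actin, at most 6.64. Jph1, which joins the membranes of the triad, was highest on adenocarcinoma 1, at 8.67, and Srl, the sarcalumenin, stayed between 6.77 and 7.49. Hspb6, a small heat shock protein, ran from 10.74 to 12.49, and Mef2c, a transcription factor of muscle and other cells, from 8.19 to 10.36. The satellite cell genes Pax7, Myf5 and Cdh15, markers of muscle stem cells, were not well above background on any array. Chosen after their values were seen, Fhl1 and Cox6a2, a muscle LIM protein and a muscle cytochrome oxidase subunit, reached 13.60 and 11.52 on adenocarcinoma 3 and 10.31 and 8.29 on normal 1.

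Markers of other tissue around the gland also varied between arrays. Of 10 adipocyte markers, 9 had a probe and 7 were tested, and the summed intensity of the 9 ranged from 1950 to 37900 in normal glands, 618 to 1530 in dysplasia and 686 to 8520 in adenocarcinoma. The median of the 7 was 12.02 and 11.01 on normal 1 and 2, 9.92 on adenocarcinoma 1 and 7.38 on adenocarcinoma 3, so normal 1 and 2 were high for both fat and muscle genes, and adenocarcinoma 3 for muscle genes. Ucp1, the uncoupling protein of brown fat, was at 12.79 and 11.54 on normal 1 and 2. The summed intensity of 5 fibroblast markers ranged from 5740 to 31000 in normal glands, 1120 to 9700 in dysplasia and 3870 to 23900 in adenocarcinoma, with medians of 12.07 on adenocarcinoma 3 and 10.78 on normal 1. For smooth muscle, 6 of 7 markers were tested, and the 7 had sums of 6850 to 28100, 3430 to 11800 and 6800 to 26900 in the same order. All 5 endothelial markers were tested, with sums of 2150 to 2840, 992 to 2720 and 1650 to 4430, and their median was highest on adenocarcinoma 3, at 9.03. The 7 acinar markers had medians of 14.66 to 15.39 in normal glands, 10.30 to 12.24 in dysplasia, and 15.33, 11.89 and 15.18 on adenocarcinoma 1, 2 and 3. The part of these tissues in the group differences was not tested.

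Heart markers were mostly not well above background. Of 7 cardiac genes only Nppb was tested, a natriuretic peptide at 10.96 on dysplasia 3 and 7.75 on adenocarcinoma 2, where the muscle median was 6.57 and 6.35. Myh6, Nppa, Tnni3 and Myl7 were not well above background on any array, Mybpc3 reached 6.46 on adenocarcinoma 3, and Ryr2 reached 7.69 on dysplasia 1. The myoepithelial and basal markers, 4 of 5 tested, had medians of 9.77 and 9.93 on normal 1 and 2, 10.25 on adenocarcinoma 1 and 8.26 on adenocarcinoma 3. Their highest array was thus not that of the muscle genes.

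**Figure D5:**
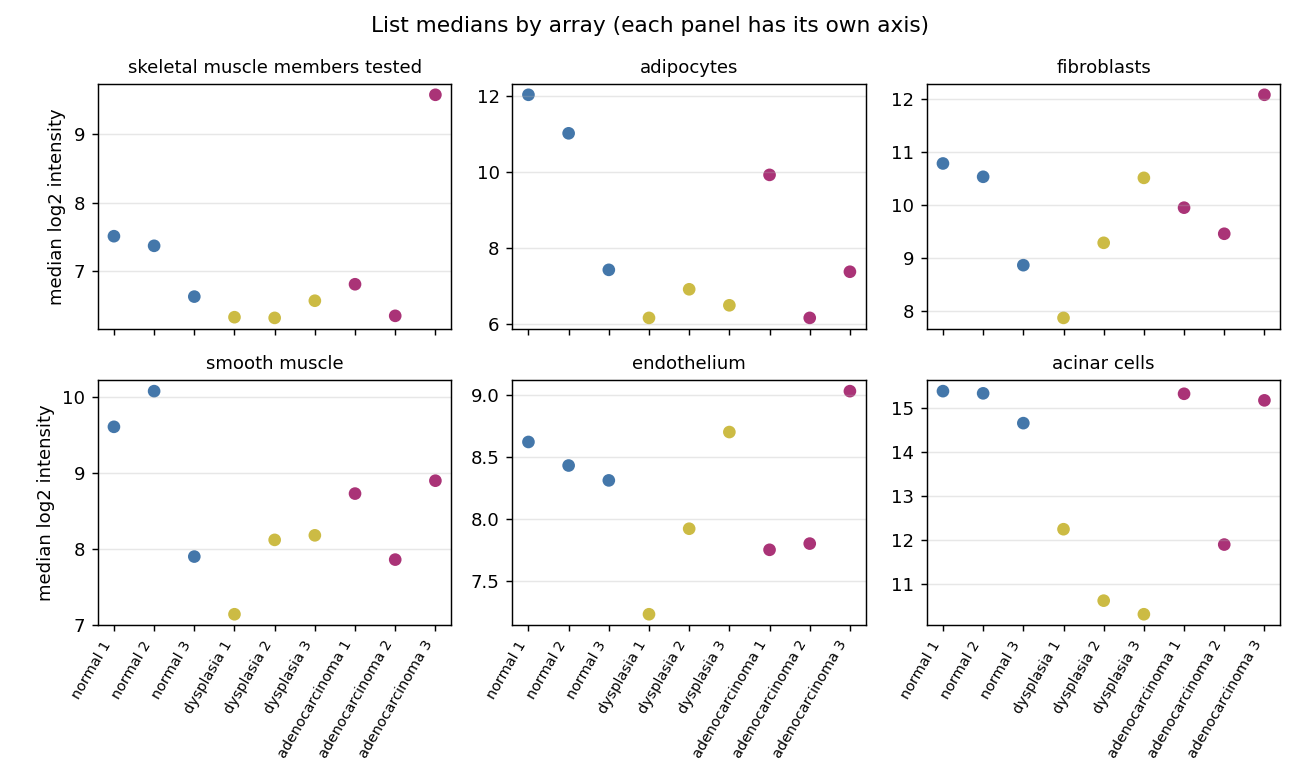
Median log2 intensity (vertical axis, a separate scale in each panel) on the 9 arrays of the 26 tested muscle genes and of the tested markers of adipocytes, fibroblasts, smooth muscle, endothelium and acinar cells. The muscle, fibroblast and endothelium medians are highest on adenocarcinoma 3, at 9.57, 12.07 and 9.03, and the adipocyte median on normal 1, at 12.02.

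The genes outside the muscle and marker lists whose arrays ran most like the median of the muscle set were Map9 (r = 0.995 over 9 arrays), Epdr1 (0.991), Mmd2 (0.989), Hoxa5 (0.988), Kng2 (0.987), Sod3 (0.986), Them7 (0.985), Evc (0.984), Dusp2 (0.983) and Gsc (0.98). All 10 were highest on adenocarcinoma 3. Hoxa5, a homeobox factor of body position, was at 12.33 there, at 7.84 and 7.29 on normal 1 and 2, and at most 6.74 on the rest. Gsc, the homeobox factor goosecoid, was at 9.97 there, at 7.45 and 7.25 on normal 1 and 2, and at 7.19 on adenocarcinoma 1. These 9 points are the same arrays that define the muscle median, with 1 array far above the others, so the correlations describe likeness only.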

How the data were processed

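Expression was measured on 9 Illumina arrays of biotin-labelled total RNA, per the labels. The deposited values are intensities on a linear scale, 42.4 at the lowest, which the authors had quantile-normalized: sorted columns differ by at most 0.0992%. The submitters' processing notes name limma. No source used here states the scanner software or a background correction. Another deposited table was set aside, because none of its 18 columns (9 with signals, 9 with detection p-values) bears the name of a sample.

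The authors' intensities were turned into log2 values. The platform annotation names 1 symbol for 34885 of 45281 probes, several for 18 and none for 10378; 34807 matched RefSeq (GRCm38.p6) and 0 symbols were updated. Background was set at an intensity of 81.0 (6.34 on the log2 scale), the 95th percentile of the spread around the mode of 65.3. A gene was represented by its probe with the highest mean. For the tests, that probe was chosen among those above background on at least 3 arrays. For each tested muscle gene both choices gave the same probe. A fold is written as at least N-fold where a group was never above background on any probe of the gene, and it is then taken against background itself.

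Groups were compared with limma 3.58.1 in R 4.3.3, with group means over 9 arrays and Benjamini-Hochberg adjustment over 12717 genes; SE is moderated. The fit was tested on simulated data. The muscle genes, the other lists and the tests were chosen with earlier results of these data known. Values on every array are given for, per role, the 3 tested genes of highest mean, and for the 3 tested genes least correlated with the median of the set; from each list of other muscle genes the 2 tested of highest mean are named, and of genes in no list the 10 most like the median. The labels do not say whether equal replicate numbers in the titles mark paired arrays, and the main fit did not pair them. Alternatives were log2 of the intensity plus 16, no filter, above background on at least 6 arrays, cyclic loess, the mean over probes, only the groups compared, array weights, a replicate block and leaving out each array. Figures were drawn with matplotlib 3.10.9.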

Additional observations from a re-analysis of the deposited data

How the results depend on the processing

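The number of muscle genes passing stayed at 0 in all 3 comparisons under the added 16, no filter, the stricter filter, cyclic loess, the mean over probes, only the groups compared, the replicate block and each array left out. Only array weights changed it, to 20 for dysplasia against normal and 2 for adenocarcinoma against normal, with 7786, 4488 and 4 genes passing overall in the 3 comparisons. Overall counts were 1 and 6 without a filter for the comparisons with normal glands and 1 for adenocarcinoma against normal with cyclic loess, and ran from 0 to 3017, 0 to 1964 and 0 to 1 with an array left out, in the order dysplasia against normal, adenocarcinoma against normal and adenocarcinoma against dysplasia. For adenocarcinoma against normal the median of the muscle genes ran from −0.61 without adenocarcinoma 3 to 0.68 without adenocarcinoma 2. For adenocarcinoma against dysplasia it ran from 0.21 to 1.65 with the same arrays left out. For dysplasia against normal it ran from −1.13 (array weights) to −0.3 (no filter). The pooled SD of array medians within groups, 1.05, cannot judge these shifts. It describes single arrays and includes adenocarcinoma 3, at 9.57 against 6.81 and 6.35 on adenocarcinoma 1 and 2. With the replicate block the medians were −0.66, 0.07 and 1.12. Deviations from the group means correlated at −0.46 to 0.24 for same-numbered arrays and at −0.49 to 0.51 for differently numbered ones. Such deviations are tied to each other within a group of 3 arrays, so they cannot decide whether the numbers mark pairs. Among the 18 genes given array by array, directions turned in adenocarcinoma against normal for Des (−0.22) and Actn3 (−0.68) with array weights and Ryr1 (0.07) with the mean over probes, and in adenocarcinoma against dysplasia for Mb (−0.63) with array weights. Over all 26 genes in adenocarcinoma against normal, those above 0 went from 14 to 6 with array weights. With an array left out, log2 fold changes of these 18 genes crossed 0 in dysplasia against normal for Mybpc2 (−0.66 to 0.03) and Myh8 (−0.10 to 0.13). In adenocarcinoma against normal they did so for Myl1 (−2.72 to 0.94), Mylpf (−1.59 to 0.85), Acta1 (−1.96 to 1.31), Tnni2 (−1.80 to 0.60), Tnnc2 (−1.97 to 0.91), Des (−0.57 to 1.12), Actn3 (−0.97 to 0.78), Atp2a1 (−2.20 to 0.81), Pvalb (−2.73 to 0.34), Ryr1 (−0.47 to 0.17), Ckm (−1.55 to 0.53), Eno3 (−0.64 to 0.43) and Myh8 (−0.08 to 0.15), and in adenocarcinoma against dysplasia for Ryr1 (−0.07 to 0.58), Mb (−0.48 to 1.22), Myh8 (−0.03 to 0.10) and Tnnc1 (−0.06 to 0.38). Genes outside the 18 crossed 0 as well. The cause was not tested. Signal over background limits the 12 untested muscle genes, whose probes rarely rose above it.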
